A study of Mus musculus with 12 samples.

Results

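The genes described here are the receptors and feedback inhibitors through which neural progenitors answer basic FGF, EGF and LIF, the mitogens and cytokine in which the neurospheres of the study were grown. They were chosen by name: Egfr, Fgfr1, Fgfr2, Fgfr3, Lifr and Il6st among the receptors, and Errfi1, Dusp6, Spry2 and Socs3 among the feedback genes. On the array 11 of 21738 probes were annotated to these 10 genes, 1 probe each and a pair for Il6st, and all 11 kept the same symbol in a current RefSeq gene table. Neurospheres are free-floating aggregates in which neural stem and progenitor cells divide. Here they came from the cortex of mouse embryos at gestational day 12.5 and were kept in serum-free medium with basic FGF (20 ng/ml), EGF (20 ng/ml) and LIF (0.15 ng/ml), in all groups alike. RNA was measured on 12 dual-channel arrays in 4 groups of 3: control cultures in growth medium only and cultures with an adenovirus that carries prominin-1 (CD133, which sits on plasma membrane protrusions), each at 24 h and at 108 h. The design text speaks of GFP or prominin positive neurospheres whereas the treatment text gives the controls no virus, so an effect of the virus and one of prominin-1 cannot be told apart. For the 24 h prominin samples the treatment field names 108 h, and the time in their titles was used. No culture without the growth factors was among the samples, so the values say nothing of a response to adding or removing them. Whether the replicates of a group came from separate cultures is not stated, so each p-value reflects spread among these samples that may be technical. Since the RNA came from whole cultures, fewer cells of a type and less RNA per cell cannot be told apart.

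EGF binds the receptor tyrosine kinase EGFR, and basic FGF binds the FGF receptors. Both kinds of receptor activate the Ras-ERK kinase cascade, which induces its own inhibitors: sprouty proteins act near the receptor, DUSP6 removes phosphate from ERK, and ERRFI1 (MIG6) binds and blocks the EGFR kinase. LIF binds a receptor made of LIFR and the shared signal chain gp130, the product of Il6st, and activates JAK kinases and STAT3, whose target SOCS3 shuts the gp130 receptor off again. In neurosphere culture EGF and FGF are used to keep progenitors dividing, and signalling through LIFR and gp130 is known to favour stem cell self-renewal and astrocyte genes.

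Each value is the log2 ratio of neurosphere RNA (Cy5) to a common embryo RNA (Cy3; whole C57/Bl6 embryos, gestational day 12), minus the array's median over the 4532 probes with a value on all 12 arrays. A value of 0 is therefore the median probe and not the embryo, a difference of 1 is a doubling of the ratio, and the values of different genes are ratios, not amounts of RNA that could be set against each other. The direction of the ratio is not stated in the labels. Neurosphere over embryo is likely, since neural stem cell markers lay high and embryonic globins low, but if it ran the other way every sign given here would turn. Dyes were not swapped. Exact zeros and a single repeated top value in the deposited table were treated as missing. The 24 h arrays had fewer measured probes (10404 to 14465) than the 108 h arrays (15944 to 16598), and 31.6 to 56.0% of their values were ratios of small whole numbers, against 3.30 to 9.62% at 108 h. Markers of neural stem cells had array medians of 2.38 to 4.60 and astrocyte markers of 3.26 to 9.18, whereas those of fibroblasts and meninges (−6.84 to −3.82), endothelium (−5.02 to −1.28) and erythroid cells (−7.47 to −4.01) lay below 0 on all 12 arrays. Neuron markers were at −3.01 to −0.29, oligodendrocyte lineage markers at 1.07 to 5.27 and those of microglia and leukocytes at −1.03 to 2.23, so the last were not low. Prom1 was measured on 9 arrays by its single probe. At 24 h it lay at −1.62 and −0.45 in the arrays labelled prominin and at 1.72 and 0.66 in controls, a difference of −2.23 that runs against the label (limma adjusted p = 0.998; the unadjusted p was under 0.05 at both times). At the later time its values were −0.11 and −0.85 in the arrays labelled prominin and −2.51, −2.33 and −4.34 in controls, a difference of 2.58 in the direction of the label (limma adjusted p = 0.717). Whether this probe reads the transcript of the virus is not stated, and prominin cultures below are those so labelled.

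Coverage differed among the listed genes. The probes of Egfr, Errfi1, Socs3, Dusp6 and 1 of the Il6st probes were measured on all 12 arrays, and that of Fgfr1 on 11. Fgfr2 and Lifr were measured on 9 arrays each, Spry2 on 8, the other Il6st probe on 7 and Fgfr3 on 6, with the missing values mostly at 24 h. Of the 11 probes 6 had the 2 values in every group that the test across 9155 probes required. They stand for 6 of the 10 genes, and Fgfr2, Fgfr3, Lifr and Spry2 are described without that test.

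**Figure D1:**
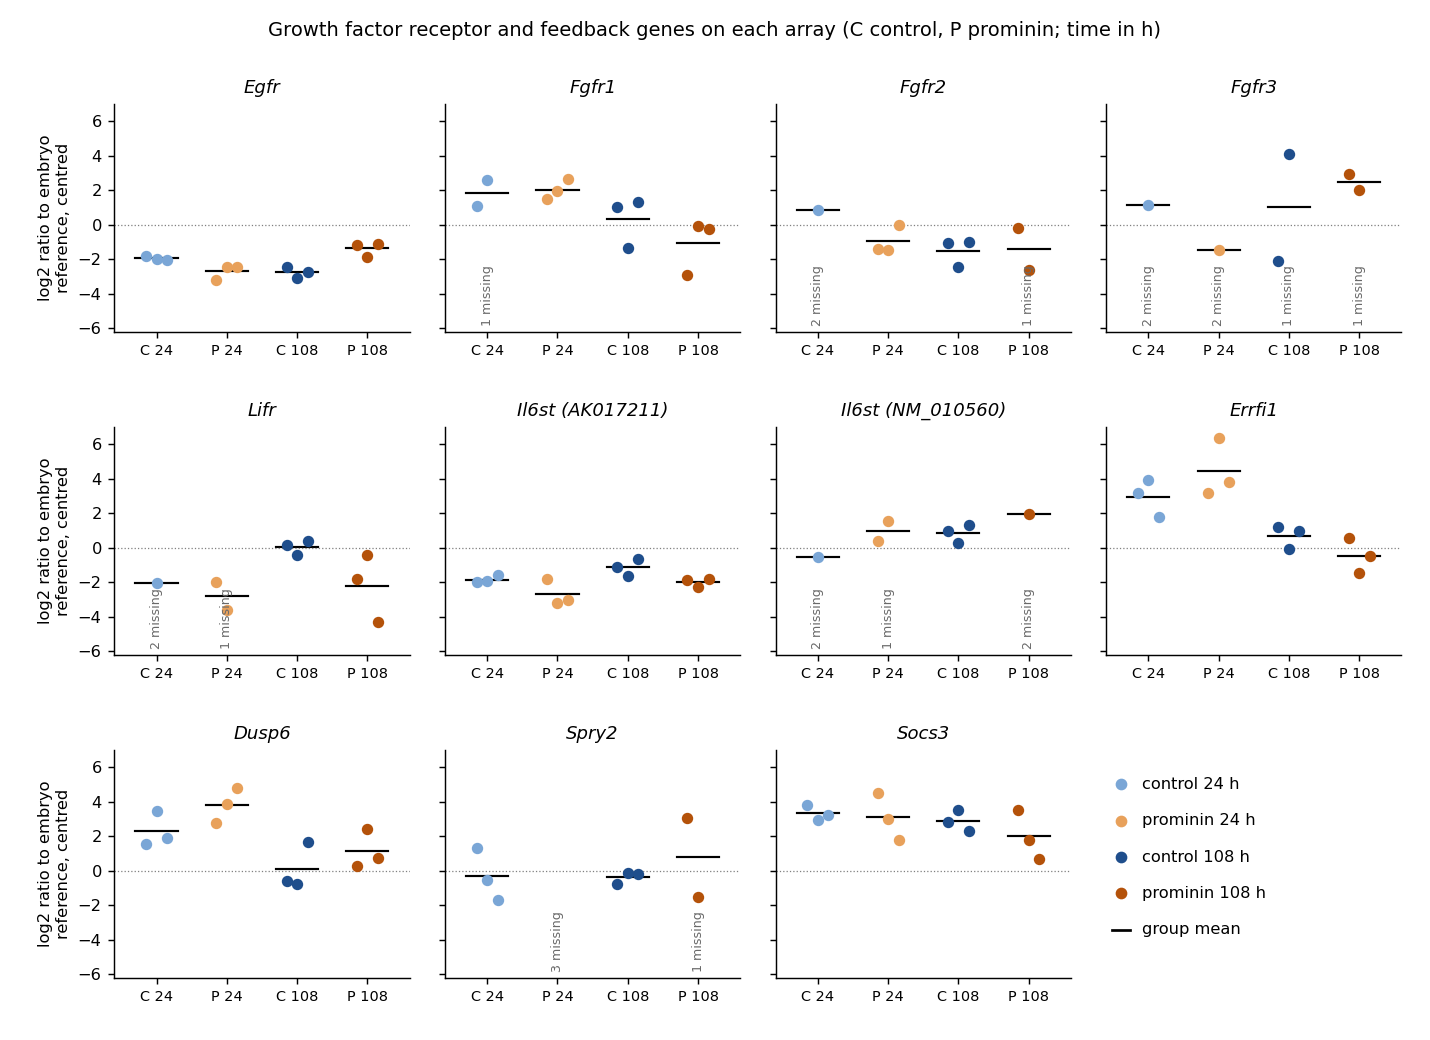
Centred log2 ratio to the embryo reference (y axis) of the 11 probes on each array, by group (x axis: C control, P prominin, 24 h or 108 h). Points are arrays, black lines group means, the dotted line is the median probe, and missing values are counted in grey. Errfi1 is the only one of the 11 probes whose 24 h values all lie above all its 108 h values, while Egfr stays below 0 on every array.

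Egfr, the receptor of the EGF in the medium, had low ratios on every array. It lay at −1.80, −1.97 and −2.06 in controls at 24 h, at −3.23, −2.49 and −2.43 in cultures labelled prominin at 24 h, at −2.45, −3.11 and −2.76 in controls at 108 h, and at −1.17, −1.86 and −1.10 in prominin cultures at 108 h. Thus cultures labelled prominin were lower than controls at 24 h, where Prom1 went against the label, and higher at 108 h, with no overlap between the groups at either time. The differences were −0.78 (SE 0.52, limma adjusted p = 0.998) and 1.40 (SE 0.52, limma adjusted p = 0.717), and their difference, the interaction with time, was 2.17 (SE 0.73, limma adjusted p = 0.805), so none passed. Groups did not overlap, in either direction, for 16.5% of the probes tested at 24 h and 15.8% at 108 h.

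Centring enlarged the Egfr differences. In the deposited ratios Egfr ran only from −4.61 to −3.42, with an SD of 0.333 over the 12 arrays, the 9th smallest of 4532 probes, whose median SD was 1.10. The prominin difference in deposited ratios was −0.10 at 24 h and 0.32 at 108 h, while the array medians themselves differed by 0.68 and −1.08 between the same groups. After centring its SD of 0.677 ranked 1156th. In deposited ratios Egfr was thus among the steadiest of these probes, and its 4 group differences had the same signs as after centring. Its groups were free of overlap there only for prominin against control at 108 h (−3.761 to −3.420 against −4.075 to −3.762). The nearest arrays of these groups, at −3.761 and −3.762, were thus almost equal. For deposited ratios the share of all probes so separated was not taken.

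**Figure D2:**
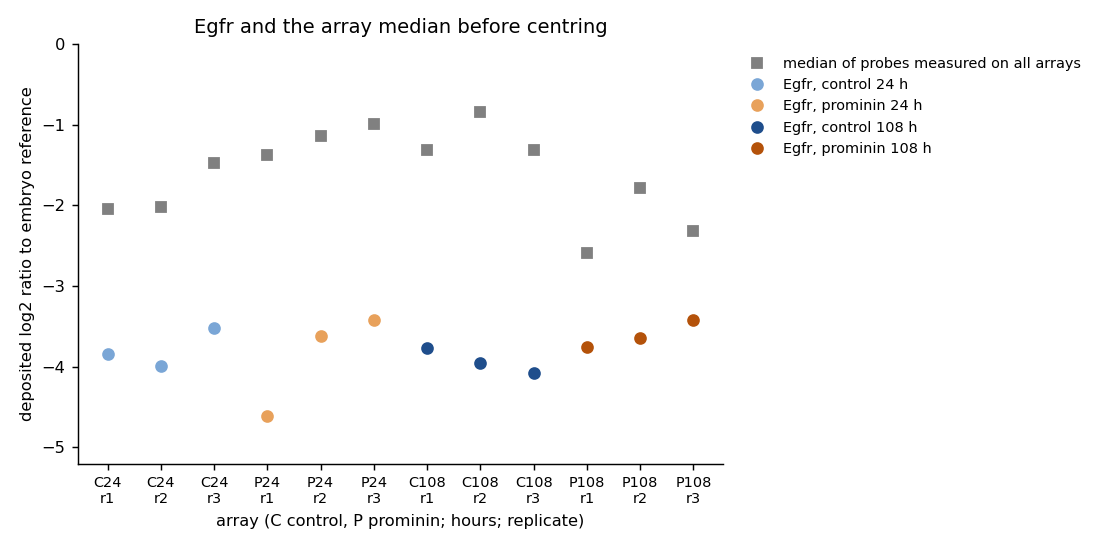
Deposited log2 ratio (y axis) of the Egfr probe (coloured circles) and the array median over 4532 probes (grey squares) on each of the 12 arrays (x axis: C control, P prominin, hours, replicate). Egfr stays between −4.61 and −3.42 while the array median runs from −2.59 to −0.84.

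Among the FGF receptors Fgfr1, the main receptor of basic FGF in cortical progenitors, had values above the median probe at 24 h and on both sides of it at 108 h. It lay at 1.10 and 2.61 in controls at 24 h (the third array held an exact zero), at 1.46, 1.93 and 2.66 in cultures labelled prominin at 24 h, at 1.02, −1.35 and 1.34 in controls at 108 h, and at −2.93, −0.07 and −0.23 in prominin cultures at 108 h. In prominin cultures every 108 h array was below every 24 h array, a separation that 9.50% of probes showed, whereas the controls of both times overlapped. The difference with time was −3.09 (SE 0.98, 95% interval −5.26 to −0.93, limma adjusted p = 0.358) in prominin cultures and −1.52 (SE 1.09, interval −3.94 to 0.90, limma adjusted p = 0.809) in controls, and neither passed. Without centring the difference in prominin cultures was −4.16 and that in controls −0.64, so the value in controls was smaller on that scale.

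Fgfr2, which serves in ventricular zone and oligodendrocyte progenitors, lay at 0.84 on the single control array measured at 24 h. It lay at −1.43, −1.45 and −0.01 in cultures labelled prominin at 24 h, at −1.06, −2.43 and −1.03 in controls at 108 h, and at −0.18 and −2.64 in prominin cultures at 108 h, where it thus overlapped with the controls. Fgfr3, an FGF receptor of radial glia and astrocytes, was measured on 6 arrays, from −2.08 to 4.13. These extremes are both controls at 108 h, so this group alone spans the whole range, and 3 of its 6 values were ratios of small whole numbers. When 1 value per group was enough for the test, the limma adjusted p of the differences of Fgfr2 and Fgfr3 was 0.749 to 1.00 over the 7 comparisons.

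The LIF receptor chains gave different pictures. Lifr lay at 0.14, −0.43 and 0.42 in controls at 108 h and at −1.83, −0.44 and −4.34 in prominin cultures at 108 h. The nearest arrays of the groups thus lay side by side, at −0.43 and −0.44, and the spread within prominin cultures (SD 1.98, n = 3) was close in size to the difference of −2.25 (SE 1.08, limma adjusted p = 0.728 with 1 value per group required). At 24 h Lifr was measured on 3 arrays, at −2.06 in controls and at −1.99 and −3.60 in prominin cultures. Its controls at 108 h were therefore above all other measured arrays, the nearest only by the narrow margin given above. The other arrays at 24 h held exact zeros, and the share of all probes with such an order was not taken.

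Il6st, the gene of gp130, was represented by a pair of probes that disagreed in level. The probe for the accession AK017211 lay at −2.02, −1.94 and −1.61 in controls and −1.79, −3.23 and −3.02 in cultures labelled prominin at 24 h. At 108 h it lay at −1.11, −1.63 and −0.66 in controls and −1.90, −2.29 and −1.80 in prominin cultures. It was below the median probe on all 12 arrays, and at 108 h prominin cultures lay below controls without overlap, as did the groups of 15.8% of probes in either direction. The probe for NM_010560 lay above the median probe on 6 of its 7 measured arrays, from −0.53 to 1.97, with 4 of those values ratios of small whole numbers. For AK017211 the prominin difference was −0.82 at 24 h (SE 0.57, limma adjusted p = 0.998) and −0.86 at 108 h (SE 0.57, limma adjusted p = 0.791), and in deposited ratios it was −0.15 and −1.94. With the probes averaged the 24 h value was 0.37. At 24 h, however, the higher NM_010560 probe had a value on 1 control array and 2 prominin arrays. The average thus mixes arrays with 1 and with both probes and cannot decide a direction, and none is given for the gene at 24 h.

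Errfi1, the inhibitor that EGFR signalling induces against its own kinase, had the widest range of the listed genes that were measured on all arrays. At 24 h it lay at 3.16, 3.92 and 1.77 in controls and at 3.16, 6.39 and 3.79 in prominin cultures. At 108 h it lay at 1.19, −0.06 and 0.98 in controls and at 0.54, −1.46 and −0.48 in prominin cultures. All 6 arrays at 24 h were thus above all 6 at 108 h, also in deposited ratios. In centred values 0.754% of the tested probes showed a separation in this direction. The mean was 3.70 ± 1.52 (SD, n = 6) at 24 h and 0.12 ± 1.00 (n = 6) at 108 h.

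Averaged over both cultures the Errfi1 difference with time was −3.58 (SE 0.66, 95% interval −5.02 to −2.14), a ratio 12.0-fold lower at 108 h, and ranked 21st of 9155 probes by p. Its limma adjusted p was 0.0705, so it did not pass the threshold of 0.05, which 5 probes (0.0546%) passed in this comparison. The p was 0.0246 when only the 4532 probes measured on all arrays were tested, 0.0370 when ratios of small whole numbers were also taken as missing (difference −3.91), and 0.0520 to 0.237 under the 21 other alternatives. Within prominin cultures the difference was −4.91 (SE 0.93, limma adjusted p = 0.166) and within controls −2.25 (SE 0.93, limma adjusted p = 0.686). The value in prominin cultures passed without centring (−5.98, limma adjusted p = 0.0389) and over the probes measured on all arrays (0.0390). It did not pass under the 21 other alternatives (limma adjusted p 0.0649 to 0.483). The interaction between prominin and time was −2.67 (SE 1.31, limma adjusted p = 0.817), so the larger value in prominin cultures was not shown to differ from that in controls.

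Dusp6, the ERK phosphatase, ran in the same direction with time as Errfi1 but with overlap. At 24 h it lay at 1.56, 3.49 and 1.87 in controls and at 2.78, 3.87 and 4.78 in prominin cultures. At 108 h it lay at −0.58, −0.78 and 1.64 in controls and at 0.27, 2.41 and 0.75 in prominin cultures. In prominin cultures the times did not overlap, a separation in this direction that 9.50% of tested probes showed. In controls the highest 108 h array reached into the 24 h range. The average difference with time was −2.44 (SE 0.64, 95% interval −3.83 to −1.04, limma adjusted p = 0.250), or 5.42-fold lower at 108 h, and did not pass in any of its 23 alternatives (−2.87 to −2.13). Prominin cultures had a mean above that of controls at both times (2.82-fold at 24 h and 2.07-fold at 108 h, SE 0.90 each on the log2 scale, limma adjusted p = 0.998 and 0.851), with overlap at both, and without centring the 108 h difference was −0.027 on the log2 scale.

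Socs3, the gp130 feedback inhibitor, had a high centred ratio in all groups. At 24 h it lay at 3.82, 2.93 and 3.26 in controls and at 4.50, 3.01 and 1.80 in prominin cultures. At 108 h it lay at 2.81, 3.53 and 2.30 in controls and at 3.52, 1.81 and 0.68 in prominin cultures. All 12 arrays were above the median probe, and every group overlapped with every other at the same time or culture. In deposited ratios, however, prominin cultures at 108 h (mean −0.23) lay below controls (1.72) without overlap, a difference of −1.95. The share of all probes so separated was not taken in deposited ratios. The mean of 2.83 ± 1.04 (SD, n = 12) was above that of 95.4% of the 10202 probes measured on at least 9 arrays. No difference passed (limma adjusted p 0.725 to 0.999 over the 7 comparisons), and the average difference with time was −0.78 (SE 0.60, 95% interval −2.11 to 0.55).

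Spry2, a sprouty inhibitor of receptor signalling to Ras, lay on both sides of the median probe, with a mean of −0.055 ± 1.57 (SD, n = 8). It was at 1.31, −0.56 and −1.70 in controls at 24 h, at −0.74, −0.13 and −0.17 in controls at 108 h, and at 3.08 and −1.52 in prominin cultures at 108 h, while all 3 prominin arrays at 24 h held exact zeros. The controls of both times overlapped, and no test was run for this gene.

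The promoters of Errfi1, Dusp6 and Socs3 are shown because Errfi1 and Dusp6 had the larger differences with time and Socs3 the highest mean ratio among the listed feedback genes, and because ETS, AP-1, serum response and STAT factors are the usual nuclear ends of ERK and LIF signalling. They are the 250 bases before the annotated start, from RefSeq on GRCm38.p6, 5′ to 3′ in the direction of the gene, with capitals for the motif matches. Of the 10 genes 9 had such a sequence. The Errfi1 window lies at chr4:150854820-150855069 (plus strand), the Dusp6 window at chr10:99262981-99263230 (plus strand) and the Socs3 window at chr11:117969367-117969616 (minus strand).
Errfi1: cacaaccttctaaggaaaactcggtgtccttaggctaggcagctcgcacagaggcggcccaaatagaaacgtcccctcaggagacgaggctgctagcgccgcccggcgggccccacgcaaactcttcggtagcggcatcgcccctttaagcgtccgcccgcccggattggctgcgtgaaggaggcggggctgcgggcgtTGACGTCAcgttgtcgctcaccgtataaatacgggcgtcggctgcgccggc
Dusp6: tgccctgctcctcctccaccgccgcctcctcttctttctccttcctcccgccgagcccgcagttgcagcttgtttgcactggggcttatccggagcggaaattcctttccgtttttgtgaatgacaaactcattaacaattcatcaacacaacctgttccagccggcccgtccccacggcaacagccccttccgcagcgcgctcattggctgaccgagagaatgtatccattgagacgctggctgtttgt
Socs3: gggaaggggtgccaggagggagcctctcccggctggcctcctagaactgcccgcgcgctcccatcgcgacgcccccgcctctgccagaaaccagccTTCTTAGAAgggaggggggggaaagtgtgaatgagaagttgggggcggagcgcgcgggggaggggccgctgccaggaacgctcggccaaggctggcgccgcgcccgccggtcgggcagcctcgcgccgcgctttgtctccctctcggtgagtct

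Searched on both strands were the STAT motif TTCNNNGAA, the ETS motif CCGGAA, the AP-1 motif TGANTCA, the CRE motif TGACGTCA and the CArG box of serum response factor. The Socs3 window held 1 STAT match, from base −154 to −146 before the start, as did 7.02% of 32851 mouse promoter windows of the same length. The Errfi1 window held 1 CRE match, from −51 to −44, as did 1.55% of the windows. Another annotated start of Errfi1 and the Dusp6 window held none of the 5 motifs. The Egfr window held 1 ETS match and the Il6st window 2, a motif found in 12.0% of the windows. A match is a description of the letters and was not tied to the array values.

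Set beside each other, the 6 tested probes gave no call in any of the 7 comparisons by limma. For prominin against control this was 0 of 6 at 24 h (0% of all tested probes were called) and 0 of 6 at 108 h (0%), with 0 and 1 probes at an unadjusted p under 0.05, where 4.58 and 6.82% of all probes lay. The probe at 108 h was Egfr, higher in prominin cultures, as were 3.29% of all probes at that p. Averaged over both times 0 of 6 were called (0%), with 0 at an unadjusted p under 0.05 (5.06% of all). The interaction also called 0 of 6 (0%), again with Egfr as the 1 probe at an unadjusted p under 0.05 (5.95% of all).

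Culture time gave more low p-values. In controls 0 of 6 were called (0% of all), with 2 at an unadjusted p under 0.05, Errfi1 and Dusp6, both lower at 108 h (6.94% of all probes had such a p, 4.15% on the lower side). In prominin cultures 0 of 6 were called (0.0218% of all), with 3 at an unadjusted p under 0.05 on the lower side, Errfi1, Dusp6 and Fgfr1 (4.50% of all), and Egfr on the higher side (4.31%), of 8.81% in either direction. In the average over both cultures the same 3 genes had an unadjusted p under 0.05 on the lower side (5.32% of all, and 9.70% in either direction). The median difference of the 6 probes was −1.54, beside −0.035 over all 9155. These comparisons share arrays and are not independent of each other. The number of measured probes and the share of small whole-number ratios also changed with time. Their part in these values was not tested beyond the alternatives, under which neither Dusp6 nor Fgfr1 passed. Of the measured values of Errfi1, Dusp6 and Fgfr1, 1 each was such a ratio. With such ratios missing, Fgfr1 had too few values in controls at 24 h to be tested. Astrocyte markers with a value on every array, Gfap and S100b by 1 probe each, had array medians of 7.43 to 9.61 at 24 h and 7.14 to 8.34 at 108 h. Of the 6 erythroid probes only that of Hba-a1 had a value on every array. It lay at −6.83 to −4.19 at 24 h and at −2.98 to 0.66 at 108 h. Its times thus did not overlap, as was so for 1.10% of tested probes in this direction. The array medians over all erythroid probes did overlap, at −7.47 to −4.01 at 24 h and −7.37 to −4.27 at 108 h. The part of these markers in the values above was not tested.

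**Figure D3:**
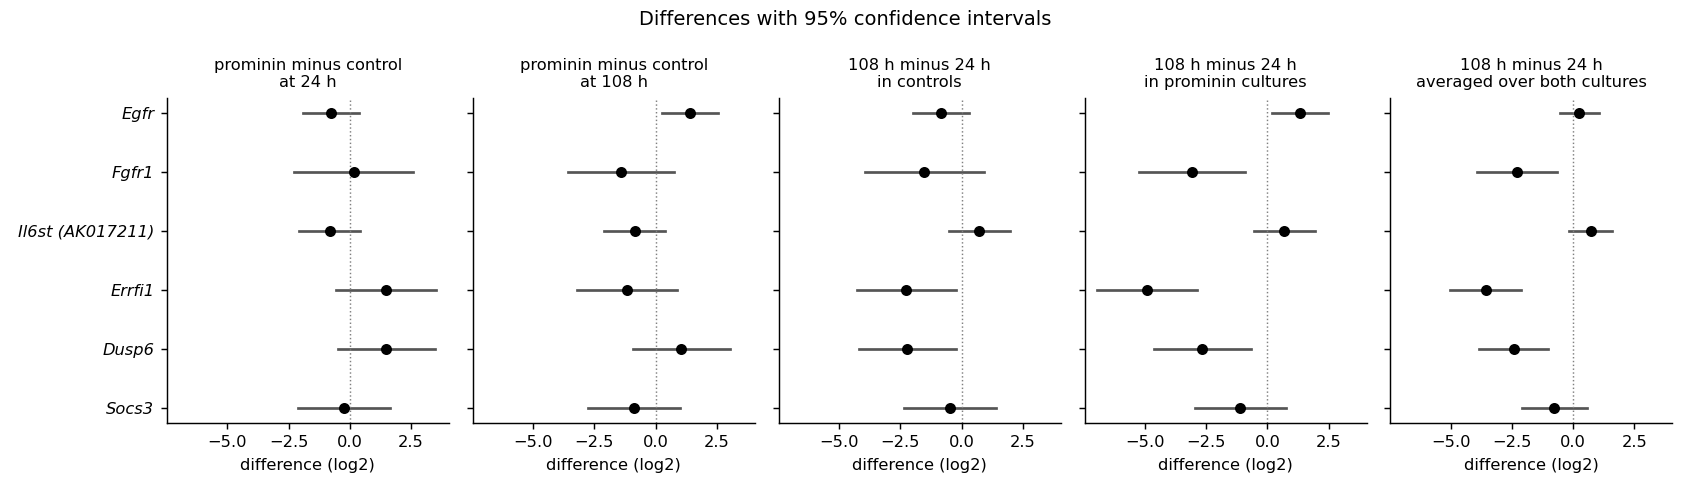
Differences on the log2 scale (x axis) with 95% confidence intervals from the limma fit for the 6 tested probes (y axis) in 5 comparisons. Points are estimates and lines intervals, not adjusted for the number of probes. In the average over both cultures the intervals of Fgfr1 (−3.93 to −0.68), Errfi1 (−5.02 to −2.14) and Dusp6 (−3.83 to −1.04) lie below 0.

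The surrounding pathway was read from 102 further genes of FGF, EGF and LIF signalling, sorted by role. Of these 81 had a probe with a single symbol, and 60 probes of 54 genes were tested. None passed by limma in any of the 7 comparisons. With time averaged over both cultures 26 were higher and 34 lower at 108 h, with 2 and 4 at an unadjusted p under 0.05 (4.38 and 5.32% of all probes) and a median of −0.12. The smallest p in that comparison belonged to Osmr, the oncostatin M receptor that also pairs with gp130, at −1.88 (SE 0.49, limma adjusted p = 0.250). For prominin against control at 108 h 24 were higher and 36 lower, with 0 and 4 at an unadjusted p under 0.05 (3.29 and 3.53% of all), first by p Stat5a, a JAK-activated transcription factor, at −3.38 (SE 0.82, limma adjusted p = 0.655).

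By role, the other feedback inhibitors had 1 higher and 9 lower among 10 tested probes with time averaged over both cultures, with a median of −0.63 and 1 at an unadjusted p under 0.05. Adaptors and the Ras-MAPK cascade had 11 higher and 5 lower (median 0.31), the transcriptional targets 8 and 8 (median −0.02), ligands 4 and 4 (0.01), the JAK-STAT genes 0 and 4 (−0.33) and other receptors 2 and 4 (−0.44). Over all 9155 probes 48.3% were higher. The ETS factor gene Etv1, an ERK target, came first by p at 24 h, at 2.18 in prominin cultures against controls (SE 0.78, limma adjusted p = 0.998). It was also first for time in controls, at 2.59 (SE 0.70, limma adjusted p = 0.485), and for the interaction, at −3.21 (SE 1.04, limma adjusted p = 0.805). First in prominin cultures with time was Spred1, an inhibitor of Ras activation, at −2.30 (SE 0.80, limma adjusted p = 0.419) by 1 of its probes, while the other gave 0.17. Averaged over both times the first was Fgf2, the gene of basic FGF itself, at −2.67 in prominin cultures against controls (SE 0.80, limma adjusted p = 0.952).

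The ratios to the embryo, relative to the median probe, differed by role among the probes measured on at least 9 arrays. Transcriptional targets had 13 of 16 probes above 0 and a median of 1.94, where all such probes had a median of 0.27 and 56.4% lay above 0. The highest was Etv1 (5.20 ± 1.23, SD, n = 11 arrays) and the lowest Cebpb (mean −1.47, from −3.48 to 0.24 over 12 arrays). Among other feedback inhibitors 7 of 10 were above 0, from Spred2, a Ras pathway inhibitor (5.05 ± 2.28, n = 12), to Dusp1, a MAP kinase phosphatase (−2.06 ± 2.41, n = 11). The cascade had 8 of 17 above 0, from the Ras activator Sos1 (2.45 ± 2.54, n = 10) to the phosphatase gene Ptpn11, whose probes disagreed (−2.59 ± 1.29, n = 12, and 1.57 ± 2.11, n = 10). Of the JAK-STAT genes 3 of 5 were above 0, from Stat3, the factor LIF activates (3.64 ± 1.15, n = 11), to the kinase gene Tyk2 (−0.35 ± 1.29, n = 12).

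Ligands had 4 of 8 above 0, from the EGF family member Hbegf (3.30 ± 0.82, n = 11) to Tgfa, another EGFR ligand (−2.56 ± 0.62, n = 12). Other receptors had 6 of 7 above 0, from Osmr (2.23 ± 1.26, n = 12) to Fgfr4 (−1.73 ± 2.31, n = 10). In the same terms Socs3 (2.83), Errfi1 (1.91 ± 2.24, n = 12) and Dusp6 (1.84 ± 1.74, n = 12) lay above 95.4, 87.0 and 86.0% of probes. Egfr (−2.20 ± 0.68, n = 12) and the AK017211 probe of Il6st (−1.92 ± 0.71, n = 12) lay above 9.35 and 11.7% of probes, and Lifr had a mean of −1.57 ± 1.65 (n = 9). With the ratio turned, the share of probes below would be 4.61% for Socs3, 13.02% for Errfi1, 14.0% for Dusp6, 90.6% for Egfr and 88.3% for Il6st. The means of Errfi1 and Dusp6 pool times that differ: Errfi1 was at 3.70 at 24 h and 0.12 at 108 h, and Dusp6 at 3.06 and 0.62. In centred values Socs3 was thus high at both times, and Errfi1 and Dusp6 mainly at 24 h. Egfr, Lifr and this Il6st probe were low, while the other Il6st probe lay at 0.85 ± 0.86 (n = 7). The deposited ratios hold the array offsets that centring removed, and their normalization is not stated. Their means were 1.23 for Socs3, 0.31 for Errfi1, 0.24 for Dusp6, −3.80 for Egfr and −3.52 for the AK017211 probe of Il6st. At 108 h the deposited means were −1.58 for Errfi1, −1.07 for Dusp6 and 0.75 for Socs3. The last pools −0.23 in prominin cultures and 1.72 in controls.

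**Figure D4:**
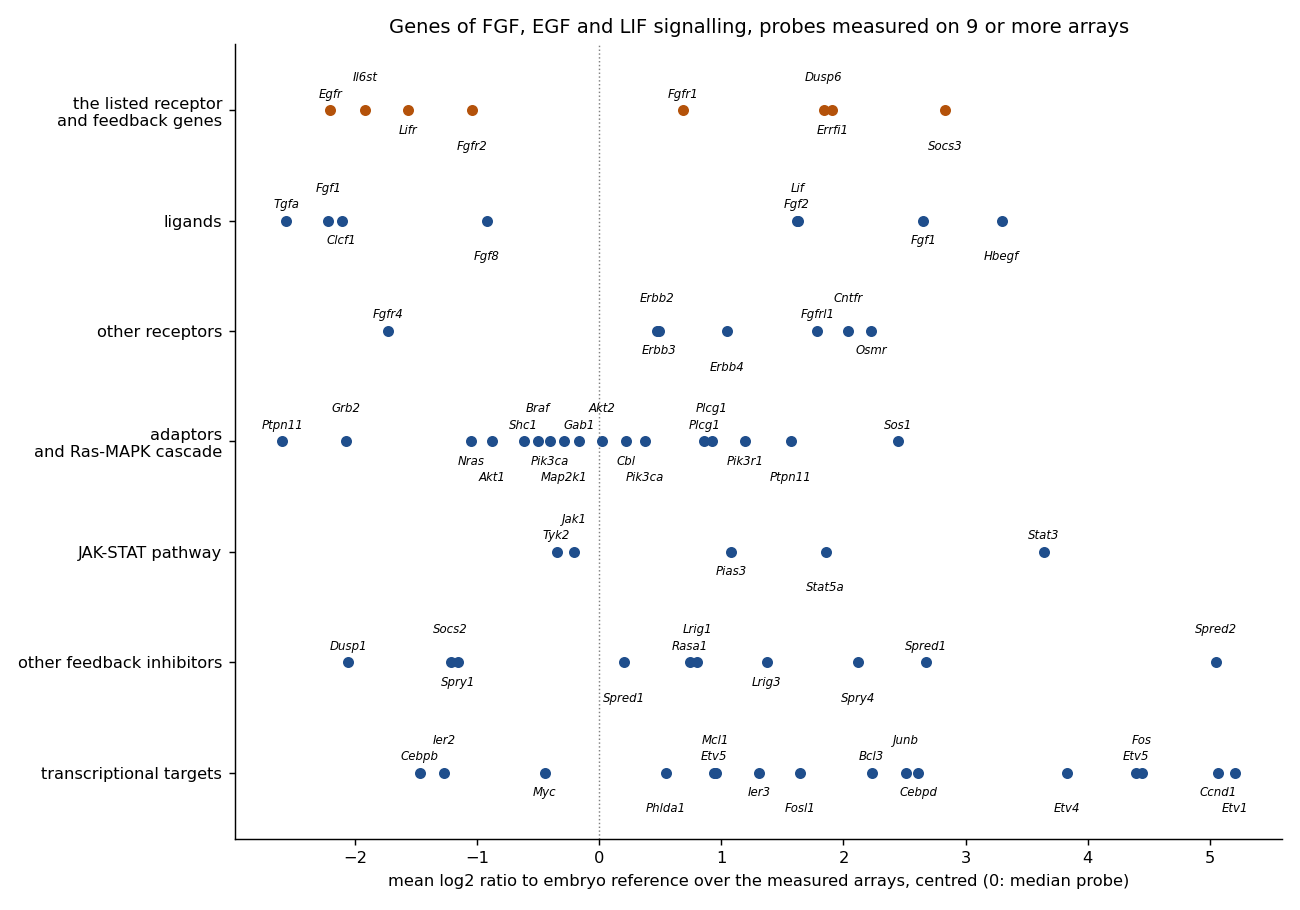
Mean centred log2 ratio to the embryo reference (x axis; 0 is the median probe) of every probe measured on at least 9 arrays, for the listed receptor and feedback genes (orange) and for further pathway genes by role (blue, y axis). Points are probes, labelled by gene. Transcriptional targets reach 5.20 (Etv1), and Egfr lies at −2.20.

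Patterns over the 12 centred arrays were compared for the 5 probes measured on all of them. Among the listed genes Errfi1 and Dusp6 were each other's closest (Pearson r = 0.67, Spearman rho = 0.66, r 0.83 and 0.62 without the 2 arrays farthest from the median of Errfi1 and of Dusp6). The 12 arrays share a reference and hold both times, and within a time the pair gave r = 0.61 over the 6 arrays at 24 h and −0.52 over the 6 at 108 h, so the likeness over all arrays was not seen within the later time. The closest of 4135 other named probes was Rgs8, a regulator of G protein signalling, for Errfi1 (r = 0.89). It was Septin11, a septin of the cytoskeleton, for Dusp6 (r = 0.92), Nelfb, a subunit of a transcription elongation factor, for Socs3 (r = 0.84) and Idh3g, a mitochondrial dehydrogenase subunit, for the AK017211 probe of Il6st (r = 0.84, but rho = 0.59 and r = 0.57 without the 2 arrays farthest from the median, on which it rests). For Egfr it was Tmem258 (r = 0.91 centred, but 0.46 in deposited ratios). Each is the highest of 4135 coefficients over 12 arrays and is given as a description.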

How the data were processed

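RNA was isolated with Trizol and RNeasy and labelled by dendrimers, Cy5 for neurospheres and Cy3 for embryos, per the labels' protocols. The scanner and the normalization are not stated in the labels. The deposited table holds 21738 probes, whose values were taken to be log2 ratios made by the authors. Exact zeros and the repeated top value became missing values. Centring subtracted, on each array, the median over the 4532 complete probes. A fit over the 9155 probes with 2 or more values per group was made in limma 3.58.1 (R 4.3.3): 1 mean per group, all 12 arrays, moderated variance, 7 contrasts, two-sided, Benjamini-Hochberg adjustment over all probes of a contrast, threshold 0.05. The contrast arithmetic was tested on simulated data. Whole-number ratios are values within 0.0006 of the log2 of a ratio of whole numbers up to 10. The number of arrays limits the precision. Probe symbols came from a platform annotation table that can be old: 16620 probes had 1 symbol, 113 several and 5005 none. The genes and lists were chosen with earlier results of these data known. All probes of the listed genes are named. Further pathway genes are named by the highest and lowest mean per role over at least 9 arrays and by the smallest p per comparison, and likeness by the highest r. Groups came from the titles. Alternatives were 3 other scalings, kept codes, stricter missing values, 2 filters, averaged probes, no moderation, a replicate block, leaving out each of the 12 arrays and, chosen after seeing the data, leaving out both replicate 1 arrays of 24 h, which had the fewest measured probes.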

Additional observations from a re-analysis of the deposited data

Results flagged for a closer look

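Egfr was singled out because arrays labelled prominin and control lay apart in opposite directions at 24 h (−0.78) and 108 h (1.40), and likewise 108 h and 24 h arrays in controls (−0.83) and prominin cultures (1.34), in centred values. These are the same 12 values read along both axes. Prominin and control groups did not overlap, in either direction, for 16.5% of tested probes at 24 h and 15.8% at 108 h. The groups of both times did not overlap for 18.6% in controls and 19.6% in prominin cultures. The difference was tested as an interaction and did not pass (2.17, SE 0.73, limma adjusted p = 0.805). In deposited ratios the 4 differences were −0.10, 0.32, −0.14 and 0.28, and the array medians that the centring removed differed by 0.68, −1.08, 0.69 and −1.06 in the same order. Leaving out 1 array at a time gave an interaction of 1.90 to 2.41 in centred values, and none passed. The prominin differences were then −0.92 to −0.51 at 24 h and 1.23 to 1.64 at 108 h. Single arrays were not otherwise examined for outlying values.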

How the results depend on the processing

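No tested gene of the list passed in any comparison except Errfi1 under the alternatives named with it, and its differences with time stayed negative in all 23 alternatives of each comparison (averaged −3.91 to −3.09). Differences that turned sign had limma adjusted p of 0.728 to 0.999 there. Without centring they were Errfi1 (prominin averaged over both times, −0.039), Il6st AK017211 (time in prominin cultures, −0.38), Socs3 (prominin at 24 h, 0.45; time in controls, 0.23) and Dusp6 (prominin at 108 h, −0.027). Socs3 at 24 h was also 0.10 with arrays centred on all measured probes and 0.24 after quantile normalization. With probes averaged Il6st gave 0.37 (prominin at 24 h) and −0.040 (time in prominin cultures). These averages take in the higher NM_010560 probe only on the arrays where it was measured. The interaction of AK017211 was 0.33 without whole-number ratios and 0.51 without both replicate 1 arrays of 24 h. Leaving out 1 array gave ranges across 0 for Errfi1 (prominin averaged, −0.32 to 0.48), Fgfr1 (prominin at 24 h, −0.16 to 0.45), Socs3 (prominin at 24 h, −0.92 to 0.42; interaction, −1.41 to 0.041), Dusp6 (interaction, −1.09 to 0.32) and Il6st (interaction, −0.31 to 0.40). The cause was not tested.

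Replicate numbers are shared by the groups. Deviations of same-numbered arrays correlated at −0.07 to 0.12 (median 0.05, 3 of 18 pairs over 0.1). Those of differently numbered arrays correlated at −0.12 to 0.12 (median −0.02, 1 of 36 pairs over 0.1), and 9 of 12 arrays were closest to one of their own number. The correlations were small and the main fit did not take the numbers as pairs. Whether same-numbered arrays share a source was not tested beyond the replicate block. With the replicate block 2 probes were called for time averaged over both cultures, in place of 5, none of them a listed gene, and Fgfr1 at 24 h was −0.25.

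The counts of all called probes moved more. With both codes kept, 21738 probes entered and 25 (prominin at 24 h), 17 (interaction), 11 (time in controls), 16 (time in prominin cultures), 25 (prominin averaged) and 26 (time averaged) were called, against 0, 0, 0, 2, 0 and 5. Without whole-number ratios the counts were 3, 10, 1 and 30 for time in controls, time in prominin cultures, prominin averaged and time averaged. Over the 4532 probes measured on all arrays they were 2, 21 and 34 for the 3 time comparisons. Without moderation they were 7 and 36 for time in prominin cultures and averaged, without centring 7 for time in prominin cultures, and for time averaged 2 with 1 value per group and 14 without both replicate 1 arrays of 24 h. Leaving out 1 array gave 0 to 1 (prominin at 24 h, 1 without control 24 h replicate 2), 1 to 3 (time in prominin cultures) and 2 to 9 (time averaged). The last count was 4 without control or prominin 108 h replicate 3, 9 and 8 without control and prominin 24 h replicate 1, and 2 or 3 without any other array. Group levels moved by over 1 SD in 36 of 43 cases without centring, 37 after quantile normalization, 18 with arrays centred on all measured probes and 11 with probes averaged.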
